A study of Mus musculus with 12 samples.

Results

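The response of CD4 effector T cells to azacitidine (AzaC) was described from 6 of the 12 mouse arrays of the series, 3 labelled CD4 AZA and 3 labelled CD4 PBS, chosen by their labels alone. All 22180 genes that the table measures with a row of exactly 1 gene symbol were included. Azacitidine, a cytidine analogue, enters RNA and, after reduction, into DNA, where it traps DNA methyltransferases. The series title places the work in graft-versus-host disease (GvHD) and the expansion of natural regulatory T cells (nTregs).

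Both sorted populations came out of the same kind of culture. Spleen nTregs from B6.Foxp3GFP mice were mixed with Treg-depleted T cells from B6.Foxp3GFP x B6.CAGDSRED mice, which carry a red fluorescent protein, at 1 nTreg to 10 effector cells. The strain label of all 12 samples, nTregs included, is a cross of B6.Foxp3GFP with B6.Cg-Tg(CAG-DsRed*MST)1Nagy/J. The mixture was activated with beads carrying anti-CD3 and anti-CD28 in the presence of IL-2 at 500 U/mL for 2 days and was then kept for 2 further days with either 1 µM AzaC or phosphate-buffered saline (PBS). CD4 cells were sorted as CD4 positive, DsRed positive and Foxp3-GFP negative, and nTregs as CD4 positive, DsRed negative and Foxp3-GFP positive. Every group therefore shares the activation, the IL-2 and the co-culture, and a change in CD4 cells can arise in these cells or through the nTregs that were treated with them, which cannot be told apart. A sort of CD8 cells is mentioned too and is not analysed here. The sources give no age or sex of the animals and do not say whether replicates were separate animals or cultures, so p-values measure only the spread between these samples, which may be technical.

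p53 is a transcription factor that is stabilised by DNA and nucleolar stress and induces genes that halt the cell cycle, repair DNA or kill the cell, with Cdkn1a (p21) as its best known target. Activated CD4 T cells are rapidly dividing cells that depend on glycolysis, on HIF factors and on SREBP-driven lipid synthesis. Foxp3, the lineage factor of regulatory T cells, is controlled in part by DNA methylation of its locus, and drugs that lower DNA methylation are known to raise its expression in conventional T cells.

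Values are log2 signals, on which a difference of 1 is a 2-fold change. Differences are CD4 AZA minus CD4 PBS with the standard error (SE) from a limma fit of all 12 arrays, and a gene was called changed where its p, adjusted by Benjamini and Hochberg's method over the whole table, was under 0.05. Array medians lay between 6.67 and 6.8. The mean correlation with the other arrays was 0.979 for CD4 PBS 3 and 0.972 for nTreg PBS 1, against 0.983 to 0.987 for the other 10 arrays. The number of arrays limits the precision: the median SE of a CD4 difference was 0.13, and when changes were simulated for the CD4 contrast, 88% of those of size 1 and 29% of those of size 0.5 were recovered. The labels held for the sorted cells, since Foxp3 averaged 12.34 in nTreg PBS and 8.05 in CD4 PBS. The mean of 11 T cell identity genes was 12.14 to 12.16 in CD4 PBS and 11.87 to 11.99 in CD4 AZA. Means of markers of other cells overlapped between CD4 PBS and CD4 AZA: 6.14 to 6.17 against 6.07 to 6.28 for 9 B cell genes, 6.25 to 6.38 against 6.26 to 6.38 for 18 myeloid and dendritic genes, and 6.09 to 6.12 against 6 to 6.37 for 6 NK and gamma-delta T cell genes. The 2 CD8 markers averaged 8.46 to 8.55 and 8.11 to 8.54, and 4 erythroid and platelet markers 6.56 to 6.65 and 6.58 to 6.75. In bulk samples such as these, fewer cells of a type and less RNA per cell cannot be told apart.

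AzaC changed 391 genes in CD4 cells, 1.76% of those tested, of which 184 rose (0.83%) and 207 fell (0.933%). Counts in the gene lists below are to be read beside these shares. The changes were mostly moderate. The median called rise was 0.67 and the median called fall −0.63, 57 genes changed at least 2-fold (32 higher, 25 lower), and 122 changed less than 1.5-fold. The median difference over all genes was 0.01. The 3 AZA and 3 PBS values did not overlap for 5231 genes, 23.6% of those tested, and for all 391 called genes. A lack of overlap therefore adds no support to a call. The count rested strongly on single arrays: it fell to between 164 (without CD4 AZA 1) and 285 (without CD4 AZA 2), and rose to 1044 without nTreg PBS 1, which enters only through the shared estimate of spread. The other counts were 202 without CD4 PBS 1, 188 without CD4 PBS 2, 171 without CD4 AZA 3 and 213 without CD4 PBS 3. With each array centred on its median, which moved the median of all genes to −0.05, 133 genes were called higher and 325 lower, so that rises made up 29% of calls instead of 47.1%. Array weights gave a share of 38.7%, quantile normalization 54.4%, and leaving out CD4 AZA 1 or CD4 PBS 3 gave 61% and 59.2%.

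**Figure D1:**
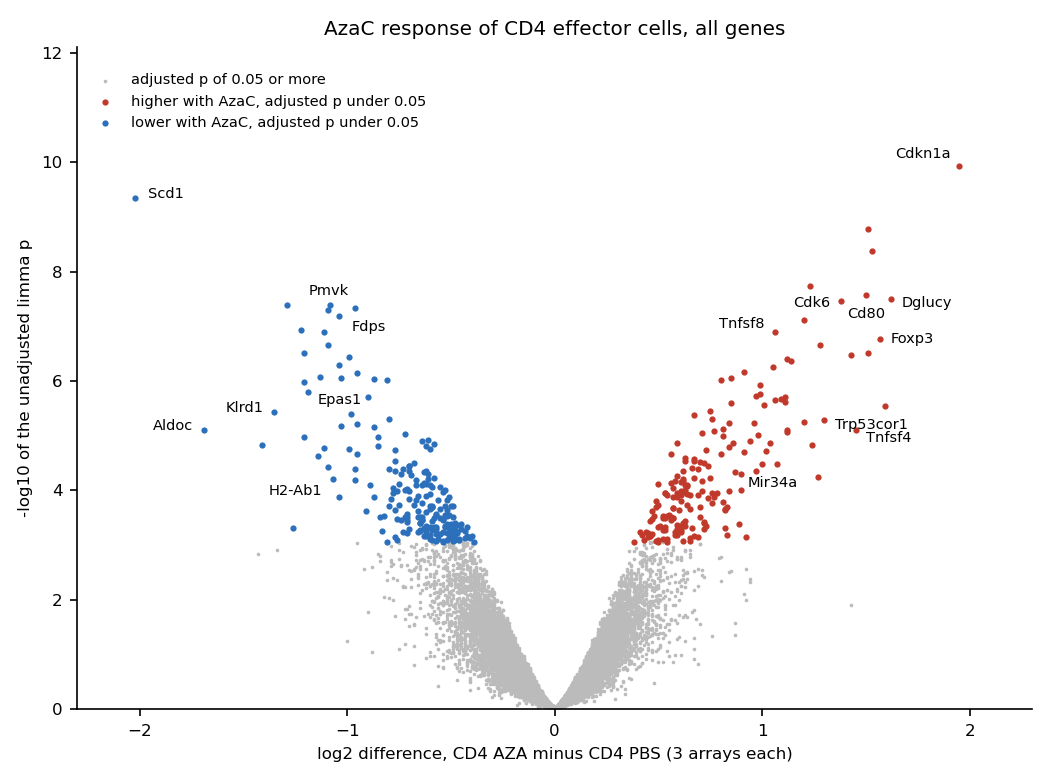
Log2 difference between CD4 AZA and CD4 PBS (x axis, 3 arrays each) against minus log10 of the unadjusted limma p (y axis) for 22180 genes. Red and blue points are the 184 genes called higher and the 207 called lower; Cdkn1a lies at 1.95 on the right and Scd1 at −2.02 on the left.

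The strongest rise was that of Cdkn1a, an inhibitor of cyclin-dependent kinases. Its signals were 9.67, 9.79 and 9.87 in the PBS arrays and 11.82, 11.64 and 11.72 in the AZA arrays, a difference of 1.95 (SE 0.12, 3.87-fold, adjusted p = 2.61e-06). Every AZA array lay far above every PBS array. Ptpn14, a protein tyrosine phosphatase and a known p53 target, read 7.35, 7.07 and 7.07 with PBS and 8.59, 8.76 and 8.67 with AzaC (1.51, SE 0.11, adjusted p = 1.21e-05). Other rises of about that size outside the groups below were those of Myl10 (a myosin light chain, 1.43), Cox6b2 (a testis isoform of a cytochrome c oxidase subunit, 1.24), Arfgef3 (an ARF exchange factor family member, 1.23), Noct (nocturnin, 1.2), Ifitm3 (1.14), Ifitm2 (1.12), Cpne2 (a copine, 1.12) and Ahnak2 (1.11). A second row of Ahnak2 differed by 0.29. Ifitm3 and Ifitm2 are interferon-inducible membrane proteins that restrict virus entry, and Ifitm3 read 8.84, 8.91 and 8.79 with PBS and 9.73, 9.98 and 10.26 with AzaC.

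The strongest fall was that of Scd1, the desaturase that makes oleate from stearate. It read 9.91, 9.97 and 9.97 with PBS and 7.82, 8.15 and 7.83 with AzaC, a difference of −2.02 (SE 0.13, 4.05-fold, adjusted p = 4.88e-06). The PBS values were nearly identical and well above the highest AZA value. Among the other large falls outside the groups below were Fam183b (−1.41), Cnga1 (a cyclic nucleotide-gated channel, −1.29), Adam6b (−1.26), Trappc6a (a vesicle tethering subunit, −1.21), Clybl (a mitochondrial lyase, −1.21), Nrbp2 (−1.14), Fam102b (−1.13), Gsn (the actin-severing protein gelsolin, −1.11), Bambi-ps1 (−1.09) and Ampd1 (an AMP deaminase, −1.08). Gsn was tight in both groups, at 9.17, 9.16 and 9.38 with PBS and 8.14, 8.14 and 8.11 with AzaC. Adam6b lost its call without any CD4 array other than PBS 2 (adjusted p of 0.0954 to 0.167).

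Some genes of each p53 target list (arrest and feedback, death, and repair and metabolism) rose in CD4 cells, while most were not called. Over all genes, 0.83% were called higher and 0.933% lower. Of 17 measured targets in cell cycle arrest and feedback, 6 rose and 0 fell (median 0.32, against 0.01 for all genes). Of 15 targets in cell death, 6 rose and 0 fell (median 0.38), and of 14 in repair and metabolism, 4 rose and 1 fell (median 0.24). In 14 of 17, 13 of 15 and 9 of 14 members the difference was above 0.

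The arrest genes were led by Cdkn1a. Trp53cor1 (lincRNA-p21), the non-coding RNA next to it, read 6.95, 6.28 and 7.19 with PBS and 8.20, 7.85 and 8.28 with AzaC (1.30, SE 0.18, adjusted p = 0.00205). Plk2, a polo-like kinase of the G1 phase, read 6.26, 6.51 and 5.52 with PBS and 7.27, 7.48 and 7.35 with AzaC (1.27, SE 0.22, adjusted p = 0.00966). In both, a PBS array lay well below its group (PBS 2 for Trp53cor1, PBS 3 for Plk2), and the groups did not overlap, as for every called gene. Ccng1 (cyclin G1) is an abundant target and rose from 12.32, 12.25 and 12.37 to 12.88, 13.07 and 12.99 (0.67, SE 0.09). Psrc1, a microtubule-associated protein, rose by 0.91 (SE 0.14). The non-coding RNA Pvt1 rose by 0.57 (SE 0.11, adjusted p = 0.0218), a call lost without PBS 1, PBS 2, AZA 1 or AZA 2 (0.0573 to 0.11) and with the replicate number as a block (0.0662).

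Mdm2, the ubiquitin ligase that degrades p53 and is itself induced by it, read 9.36, 9.34 and 9.47 with PBS and 9.61, 9.65 and 9.09 with AzaC. Its groups overlapped, because AZA 3 lay below all PBS arrays. The difference was 0.06 (SE 0.14, 95% interval −0.24 to 0.37, adjusted p = 0.863). Trp53 and Bax are not analysed here, since no row held them as its single symbol.

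In the death list, Tnfrsf10b is the mouse TRAIL receptor DR5. It read 7.30, 7.55 and 7.36 with PBS and 8.28, 8.60 and 8.47 with AzaC (1.05, SE 0.12, adjusted p = 0.000445). Phlda3, a repressor of AKT signalling, read 8.63, 8.21 and 7.72 with PBS and 9.42, 9.38 and 9.35 with AzaC (1.2, SE 0.17, adjusted p = 0.00214). The PBS values of Phlda3 spread over almost a full log2 unit while the AZA values were nearly equal. Zmat3, an RNA-binding protein of the p53 pathway, rose by 0.99 (SE 0.12), Aen, a nuclease of apoptotic cells, by 0.84 (SE 0.13) and Dcxr, a carbonyl reductase, by 0.63 (SE 0.10). Pidd1, the scaffold of the caspase-2 complex, rose by 0.84 (SE 0.16, adjusted p = 0.0137), a call lost without PBS 3, AZA 1 or AZA 3 (0.0635 to 0.079). A separate list of 29 genes of the BCL2 family and death machinery had 0 calls by limma in either direction (6 at an unadjusted p under 0.05), with a median of 0.03.

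In repair and metabolism, Dglucy, the mitochondrial D-glutamate cyclase, was the largest. It read 7.75, 7.57 and 8.09 with PBS and 9.61, 9.34 and 9.34 with AzaC (1.62, SE 0.15, adjusted p = 9.09e-05). Cpt1c, a carnitine palmitoyltransferase mainly known from brain, rose from 7.88, 7.43 and 7.28 to 8.85, 8.66 and 8.90 (1.28, SE 0.14). Slc19a2, a thiamine transporter, rose by 0.99 (SE 0.13) and Polk, the translesion DNA polymerase kappa, by 0.62 (SE 0.11). Pltp, a phospholipid transfer protein, fell by 0.95 on the log2 scale (SE 0.11). Outside the p53 lists, Rev1 (0.76), a translesion polymerase, and Dna2 (0.72), a replication nuclease, also rose; both were chosen after their values were seen.

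Promoter sequence from RefSeq (GRCm38.p6, 250 bases before to 50 after a gene's start) was available for 12 of the 16 p53 targets that rose. The decamer unit of the p53 binding site was searched as RRRCWWGYYY, with R for A or G, W for A or T and Y for C or T. This motif is palindromic, so both strands were searched at once. It lay in 4 of these 12 (33.3%) and in 12 of all 37 p53 list members with a promoter (32.4%). Of all 16918 promoters, 8.7% held the motif. It also lay in 4 of 15 cholesterol genes (26.7%), Hmgcs1 among them, so the share is not particular to p53 targets. A match describes letters in this window only. The matches in Cdkn1a, Ccng1, Aen and Polk are shown because these genes rose, and the one in Mdm2 because it was not called. Capitals mark the motif and each line runs 5′ to 3′ on the strand of the gene.
Cdkn1a (chr17:29090894-29090927, plus strand, 73 bases before the start): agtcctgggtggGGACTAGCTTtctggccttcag
Cdkn1a (chr17:29090916-29090949, plus strand, 51 bases before the start): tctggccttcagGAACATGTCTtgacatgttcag
Ccng1 (chr11:40755450-40755483, minus strand, 185 bases before the start): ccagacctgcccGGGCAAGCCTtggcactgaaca
Aen (chr7:78895925-78895958, plus strand): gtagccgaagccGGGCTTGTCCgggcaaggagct
Polk (chr13:96519397-96519430, minus strand, 231 bases before the start): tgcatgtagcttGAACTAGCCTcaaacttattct
Mdm2 (chr10:117710923-117710956, minus strand, 186 bases before the start): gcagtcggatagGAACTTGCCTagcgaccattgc

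MicroRNA genes were read by the arrays as RNA from their loci, and mature miRNAs were not measured separately. Of 478 miRNA genes with a row, 4 rose and 0 fell by limma (median 0.02). Mir34a, the gene of the best known p53-induced miRNA, read 7.09, 6.92 and 7.24 with PBS and 8.42, 7.98 and 8.08 with AzaC (1.07, SE 0.18, 2.10-fold, adjusted p = 0.00693). Its groups were well apart, with AZA 1 the highest. Mir3097 rose from 8.75, 8.92 and 8.57 to 10.76, 9.89 and 10.36 (1.59, SE 0.21) and Mir1949 from 7.75, 7.96 and 7.66 to 9.41, 9.34 and 9.19 (1.53, SE 0.12). Mir1898 rose by 0.82 (SE 0.18, adjusted p = 0.0356), a call lost without PBS 1, PBS 2, AZA 1 or AZA 3 (0.0908 to 0.168). The mature products of the genes that rose and have a RefSeq entry are shown with the seed (bases 2 to 8), which pairs with targets, in capitals.
miR-34a-5p (chr4:150068473-150068494, plus strand): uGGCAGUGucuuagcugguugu
miR-34a-3p (chr4:150068517-150068537, plus strand): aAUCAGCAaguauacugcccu
miR-3097-5p (chr5:35021050-35021072, plus strand): cACAGGUGggaagugugugucca
miR-3097-3p (chr5:35021094-35021115, plus strand): cUCAGACCuuucuaccugucag
miR-1898 (chr15:12171502-12171523, plus strand): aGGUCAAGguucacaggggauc

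Among the RefSeq mature entries used here, the miR-34a-5p seed GGCAGUG was found in 4, those of Mir34a, Mir34b, Mir449a and Mir449c. Products without an entry there were not compared. Among the loci of the miR-34 and miR-449 family, only Mir34a was called. Mir34b differed by 0.26 (adjusted p = 0.302), Mir34c by −0.07, Mir449a by −0.01, Mir449b by 0.13 and Mir449c by 0.24.

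**Figure D2:**
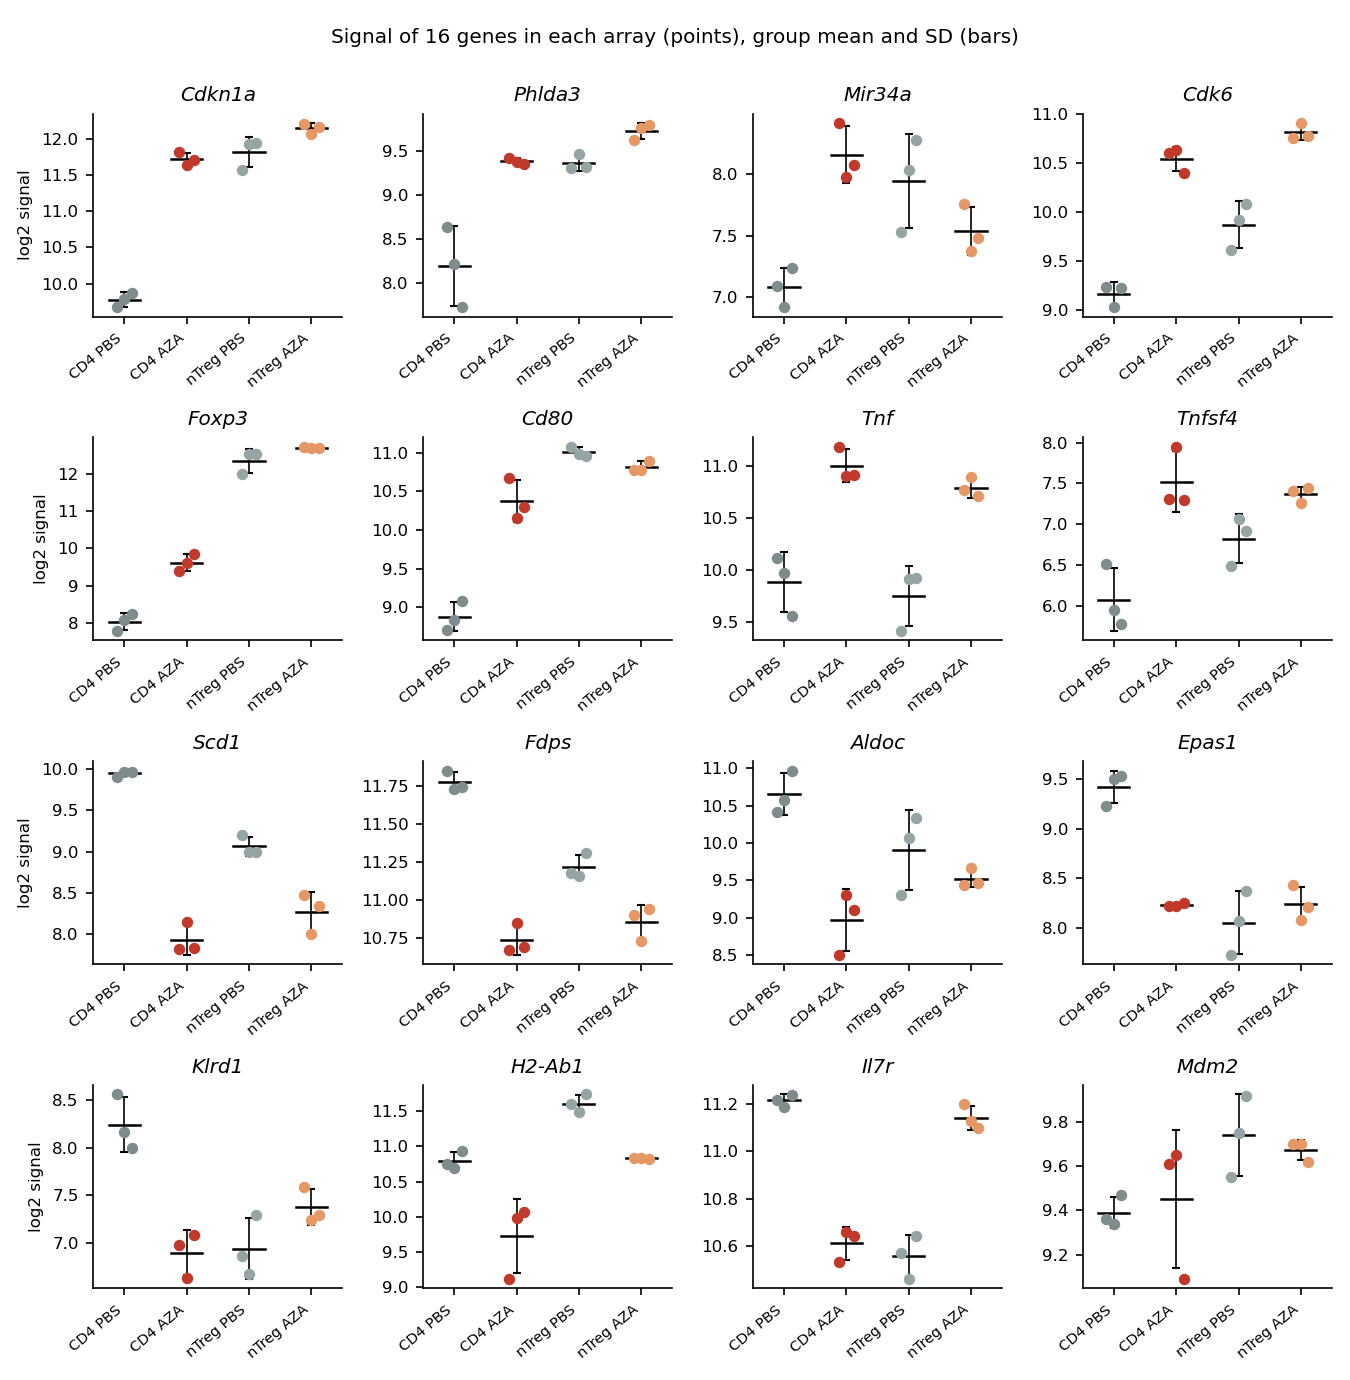
Log2 signal of 16 genes (y axes, each with its own range that does not start at 0) in each of the 12 arrays by group (x axes); bars are group means and SDs of 3 arrays. The AZA arrays of CD4 cells lie above all CD4 PBS arrays for Cdkn1a, Phlda3, Mir34a, Cdk6, Foxp3, Cd80, Tnf and Tnfsf4 and below them for Scd1, Fdps, Aldoc, Epas1, Klrd1, H2-Ab1 and Il7r, while Mdm2 overlaps.

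Most cell cycle genes were not called, and most differences were small. Rises in G1/S and falls in G2/M were still more frequent than over all genes, of which 0.83% rose and 0.933% fell. Of 36 genes of G1/S and DNA replication, 6 rose and 0 fell, 33 differences were above 0 and the median was 0.23. Of 33 genes of G2/M and mitosis, 0 rose and 2 fell, 31 differences were below 0 and the median was −0.22. Cdk6, the G1 kinase that works with cyclin D, stood out: it read 9.24, 9.03 and 9.23 with PBS and 10.60, 10.63 and 10.40 with AzaC (1.38, SE 0.13, adjusted p = 9.09e-05). The replication licensing factor Cdc6 read 9.35, 9.32 and 9.56 with PBS and 9.88, 10.17 and 10.09 with AzaC (0.64, SE 0.12, adjusted p = 0.0146). Ccnd2 (cyclin D2, 0.48), the helicase subunits Mcm2 (0.58) and Mcm6 (0.47) and the repressor E2f7 (0.54) rose by less. Cdc25b (−0.63) and Cdc25c (−0.49), the phosphatases that release the mitotic kinase, fell. The proliferation marker Mki67 differed by −0.01 (95% interval −0.25 to 0.22).

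Except for Cdk6, these cell cycle calls were lost without single arrays. Cdc6 was lost without PBS 1, PBS 2, AZA 2 or AZA 3 (adjusted p of 0.0595 to 0.0714), Ccnd2 without PBS 1, PBS 2, AZA 1 or AZA 3 (0.086 to 0.115), Mcm2 and Mcm6 without any CD4 array other than PBS 3 (0.0661 to 0.14) and E2f7 without any other than AZA 2 (0.116 to 0.202). Cdc25b and Cdc25c were lost without each of the 6 (0.0555 to 0.181). The G1/S count was 1 to 5 without a single CD4 array, 2 after centring, 2 with the replicate block and 10 without nTreg PBS 1.

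Among 8 CDK inhibitors, Cdkn1a rose and Cdkn2d (p19) fell (−0.71, adjusted p = 0.0404; 0.0647 to 0.187 without each of the 6 CD4 arrays in turn). Cdkn1b (p27) differed by −0.78 (adjusted p = 0.0814; 0.00492 without nTreg PBS 1, 0.0187 in the 6 CD4 arrays alone, 0.00427 with array weights and 0.0476 with the replicate block). The list's median was −0.17, and Cdkn1a was the single inhibitor of the list called higher. The linker histone H1f2 fell, from 8.68, 8.64 and 8.92 to 7.5, 7.83 and 7.64 (−1.09, SE 0.12, adjusted p = 0.00024), as the single call among 26 histone genes (median −0.14).

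Genes of cholesterol synthesis and uptake were lower in CD4 cells with AzaC. All 19 measured differences were below 0, with a median of −0.59. In this list 9 genes fell while 0 rose, against 0.933% of all genes called lower. The calls run along the pathway. Hmgcs1, at its start, read 9.51, 9.41 and 9.45 with PBS and 8.52, 8.80 and 8.33 with AzaC (−0.91, SE 0.19, adjusted p = 0.0231). Pmvk, the phosphomevalonate kinase, read 10.17, 10.34 and 10.48 with PBS and 9.26, 9.23 and 9.22 with AzaC (−1.09, SE 0.10, adjusted p = 9.09e-05). Fdps, which makes farnesyl diphosphate, read 11.85, 11.73 and 11.74 with PBS and 10.67, 10.85 and 10.69 with AzaC (−1.04, SE 0.10, adjusted p = 0.000112). In each of the 3, the highest AZA value lay well below the lowest PBS value.

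Sqle, the squalene epoxidase at the entry to sterols, read 10.40, 10.45 and 10.46 with PBS and 9.52, 9.64 and 9.71 with AzaC (−0.81, SE 0.10). The later enzymes Cyp51 (−0.72), Nsdhl (−0.66) and Msmo1 (−0.60), the mevalonate kinase Mvk (−0.49) and the cholesterol carrier Stard4 (−0.78) fell as well. Of the regulators, Insig2, which retains SREBP in the endoplasmic reticulum, fell (−0.59, adjusted p = 0.0209; 0.0612 to 0.0897 without any CD4 array other than PBS 1; chosen after its value was seen), and Srebf2, the SREBP that drives this pathway, differed by −0.65 (adjusted p = 0.201; 0.00492 without nTreg PBS 1, 0.0225 in the 6 CD4 arrays alone and 0.0111 with array weights). The count of 9 became 3 without CD4 PBS 3, 3 without CD4 AZA 1 and 3 to 8 over the 6 CD4 arrays, and 13 without nTreg PBS 1. Calls lost without single arrays were those of Cyp51 (without PBS 3 or AZA 1, adjusted p of 0.0654 and 0.0783), Stard4 (without PBS 3, AZA 1 or AZA 3, 0.0616 to 0.0763), Mvk (without PBS 1, PBS 3, AZA 1 or AZA 3, 0.0629 to 0.0972), Hmgcs1 and Msmo1 (without any array other than AZA 2, 0.0631 to 0.118) and Nsdhl (without all 6, 0.0908 to 0.139).

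The sterol regulatory element, searched as TCACNCCAC on both strands, lay in the promoter of 1 of 15 cholesterol genes with a RefSeq promoter (6.7%) and in 1.4% of all promoters. That gene is Hmgcs1, and its window is shown because it is the pathway's first committed step and the single match of the list.
Hmgcs1 (chr13:119690202-119690234, plus strand, 137 bases before the start): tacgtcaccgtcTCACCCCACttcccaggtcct

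The median of the fatty acid genes was −0.06, while their called shares exceeded those over all genes (0.933% lower, 0.83% higher). Of 18, 3 fell and 1 rose. Besides Scd1 these were Idh1, the cytosolic NADPH-producing isocitrate dehydrogenase, which read 9.08, 8.71 and 8.90 with PBS and 7.43, 7.69 and 7.95 with AzaC (−1.21, SE 0.18, adjusted p = 0.00313), and Acss2, which makes acetyl-CoA from acetate (−0.77, adjusted p = 0.0443; 0.0608 to 0.204 without each of the 6 CD4 arrays). Lpin1, a phosphatidate phosphatase, rose (0.64, adjusted p = 0.0202; 0.0551 to 0.0899 without any other than AZA 1). Scd4, a further desaturase outside the list, fell by 1.04 on the log2 scale (adjusted p = 0.000409). Fasn, the fatty acid synthase, differed by 0.33 (95% interval −0.11 to 0.76, adjusted p = 0.462).

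Hypoxia-induced and glycolytic genes were mostly lower. Of 23 hypoxia-induced genes, 3 fell and 0 rose, with 18 differences below 0 and a median of −0.51. Of 18 glycolytic genes, 2 fell and 0 rose, with 15 below 0 and a median of −0.21. Over all genes, 0.933% were called lower. Nuclear genes of oxidative phosphorylation had 0 calls by limma among 24 (0 at an unadjusted p under 0.05) and a median of −0.06. Mitochondrially encoded RNAs had 0 calls by limma among 10 (2 at an unadjusted p under 0.05), with 9 differences above 0 and a median of 0.19.

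Aldoc, the brain-type aldolase, showed the largest fall of these. It read 10.42, 10.58 and 10.97 with PBS and 8.5, 9.30 and 9.10 with AzaC (−1.69, SE 0.25, 3.23-fold, adjusted p = 0.00265). P4ha2, a collagen prolyl hydroxylase induced by HIF, read 8.62, 8.63 and 8.86 with PBS and 7.25, 7.59 and 7.62 with AzaC (−1.22, SE 0.12, adjusted p = 0.000169). AZA 1 was the lowest array for both. Pgk1, phosphoglycerate kinase, fell from 12.88, 12.72 and 12.91 to 11.95, 12.33 and 12.22 (−0.67, SE 0.12, adjusted p = 0.0103; 0.0538 without AZA 1). Gbe1, the glycogen branching enzyme, fell by 0.77 on the log2 scale (adjusted p = 0.00443). Pdk1, which diverts pyruvate from mitochondria, fell too (−0.81, adjusted p = 0.0499), a call lost without each of the 6 CD4 arrays (0.0919 to 0.212). Ndrg1, another hypoxia-induced gene, missed the threshold (−0.95, adjusted p = 0.0504). Without nTreg PBS 1 the hypoxia count was 11 and the glycolysis count 7.

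Epas1, which encodes HIF-2 alpha, fell with very tight AZA values. It read 9.23, 9.50 and 9.53 with PBS and 8.22, 8.22 and 8.25 with AzaC (−1.19, SE 0.15, 2.28-fold, adjusted p = 0.000885). The core of the hypoxia response element, searched as ACGTG on both strands and contained in the E-box CACGTG, lay in the promoters of 14 of 20 hypoxia-induced genes (70.0%) and of 23.8% of all genes. Of those 14, P4ha2 was the single called gene. Its windows are shown with those of Aldoc and Pgk1, called genes of the glycolysis list, and capitals mark ACGTG or, where it lies on the opposite strand, CACGT.
P4ha2 (chr11:54100834-54100862, plus strand, 78 bases before the start): tgtgcatcgcatACGTGcagcgcgtggcg
P4ha2 (chr11:54100922-54100950, plus strand): cgggaggtggggACGTGgcggaggctcaa
Aldoc (chr11:78323088-78323116, plus strand): cccccagggagtCACGTagctctgcggca
Pgk1 (chrX:106186938-106186966, plus strand, 150 bases before the start): gcgtcgtgcaggACGTGacaaatggaagt
Pgk1 (chrX:106186957-106186985, plus strand, 131 bases before the start): aaatggaagtagCACGTctcactagtctc

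Foxp3 rose in the CD4 cells. It read 7.79, 8.09 and 8.26 with PBS and 9.39, 9.61 and 9.85 with AzaC (1.57, SE 0.16, 2.96-fold, adjusted p = 0.000207). The group mean of 9.62 remained well below the 12.34 of nTreg PBS, a distance of 4.29 from CD4 PBS. Both CD4 groups were gated as negative for the GFP reporter of this gene, and the share of reporter-positive cells that passed the gate was not measured.

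Of 27 measured genes of the Treg signature, 4 rose and 0 fell, against 0.83% of all genes called higher. In 22 the difference was above 0, and the median was 0.27. Ikzf4 (Eos), a partner of Foxp3, read 8.18, 8.02 and 7.79 with PBS and 9.11, 8.84 and 8.98 with AzaC (0.98, SE 0.15, adjusted p = 0.00307). Il2ra (CD25), the high-affinity chain of the IL-2 receptor, read 12.47, 12.49 and 12.61 with PBS and 13.16, 13.10 and 13.08 with AzaC (0.59, SE 0.09, adjusted p = 0.00383). Tnfrsf4 (OX40) read 10.63, 10.57 and 10.51 with PBS and 11.11, 11.16 and 11.12 with AzaC (0.56, SE 0.09, adjusted p = 0.00497). Il2ra and Tnfrsf4 are also induced by activation in any T cell. For all 3 genes the groups were apart, as for every called gene.

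Other defining Treg genes did not pass with all 12 arrays in the fit. Ikzf2 (Helios), which marks thymus-derived Tregs, differed by 0.06 (95% interval −0.21 to 0.33, adjusted p = 0.848), Ctla4 by −0.16 (adjusted p = 0.524), Lrrc32 (GARP) by 0.84 (adjusted p = 0.10) and Socs2 by 0.70 (adjusted p = 0.0509). Lrrc32 and Socs2 passed without nTreg PBS 1 (adjusted p = 0.000397 and 0.00754) and in the 6 CD4 arrays alone (0.00735 and 0.038), where the Treg signature had 8 and 7 rises in place of 4. Of the 27 genes, 21 were called higher in nTreg PBS than in CD4 PBS, a comparison that shares the CD4 PBS arrays. Of these 21, 4 rose with AzaC in CD4 cells, 0 fell and 17 were not called by limma, and 17 had a difference above 0. The mean of the 27 genes was 8.60 to 8.65 in CD4 PBS, 8.92 to 8.97 in CD4 AZA and 9.62 to 9.98 in nTreg PBS. Cd4 itself differed by −0.30 (adjusted p = 0.368).

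**Figure D3:**
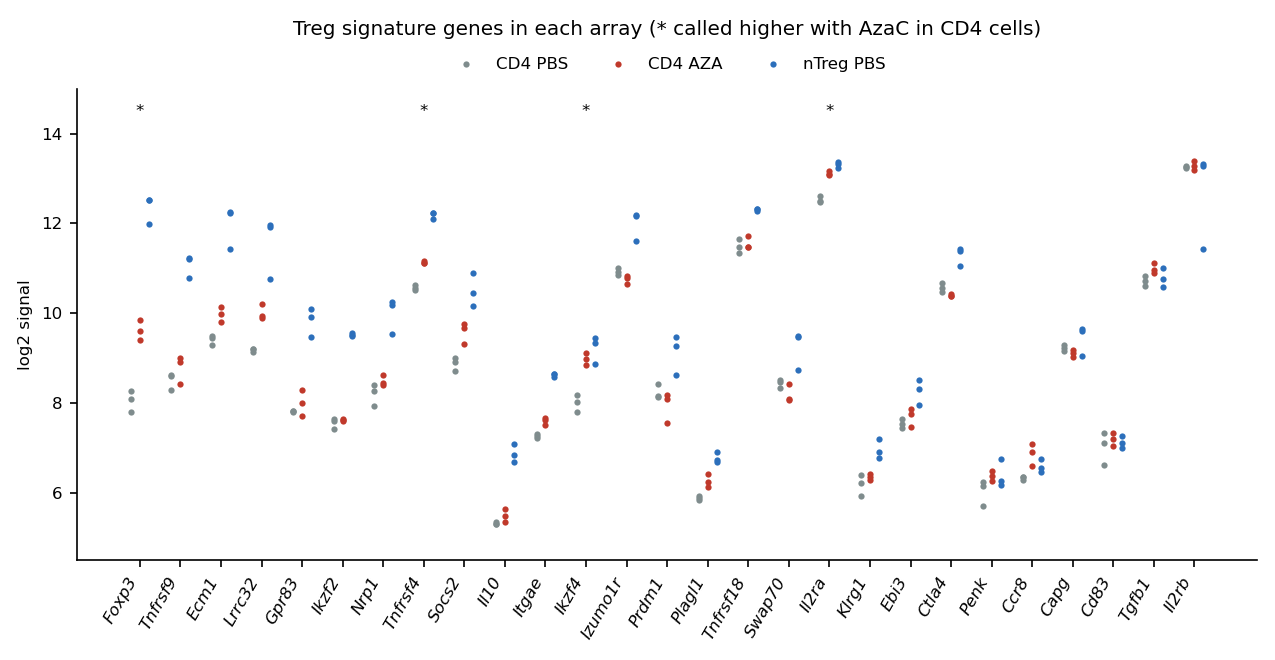
Log2 signal (y axis, which does not start at 0) of 27 Treg signature genes (x axis) in the single arrays of CD4 PBS, CD4 AZA and nTreg PBS, 3 each. Asterisks mark Foxp3, Tnfrsf4, Ikzf4 and Il2ra, called higher with AzaC in CD4 cells; the CD4 AZA values of Foxp3 lie between those of CD4 PBS and nTreg PBS, and those of Ikzf2 at the CD4 PBS level.

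Of 15 measured ligands of the TNF family, 4 rose, 0 fell and 11 were not called, against 0.83% of all genes called higher. Differences reached down to −0.42, with a median of 0.23. Tnf read 10.12, 9.97 and 9.56 with PBS and 11.19, 10.91 and 10.92 with AzaC (1.12, SE 0.16, adjusted p = 0.00268). Tnfsf8, the CD30 ligand, read 8.90, 8.99 and 8.80 with PBS and 10.05, 9.96 and 9.87 with AzaC (1.06, SE 0.11, adjusted p = 0.000169). Tnfsf4, the ligand of OX40, was the largest, from 6.51, 5.94 and 5.77 to 7.31, 7.95 and 7.30 (1.45, SE 0.21, adjusted p = 0.00265). Its receptor Tnfrsf4 rose in the same cells, as given above. Lta, lymphotoxin alpha, rose from 9.21, 9.28 and 9.07 to 10.10, 9.83 and 10.02 (0.80, SE 0.13). The count of 4 held without each CD4 array in turn.

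Among 19 receptors of the TNF family, Tnfrsf4 and Tnfrsf10b rose and Cd27, a costimulatory receptor of naive and memory cells, fell from 11.61, 11.46 and 11.39 to 10.82, 10.77 and 10.99 (−0.63, SE 0.11, adjusted p = 0.0114; 0.0581 without PBS 1 and 0.0562 without AZA 1). The list's median was 0.02. Of 21 NF-kB subunits and regulators, which many of these receptors activate, limma called 0 in CD4 cells (median −0.04; 1 had an unadjusted p under 0.05). Effector cytokines had 0 calls by limma among 20 (5 at an unadjusted p under 0.05, median 0.10), with Ifng at 0.34 (adjusted p = 0.146) and Il2 at 0.02. Il2 was dim, averaging 5.36 in CD4 PBS and 5.38 in CD4 AZA beside array medians of 6.67 to 6.8. Ifng averaged 6.72 and 7.06. Of 15 chemokines, Xcl1 (lymphotactin) rose (0.76, adjusted p = 0.0188; 0.0524 to 0.0986 without PBS 1, PBS 2, PBS 3 or AZA 3).

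Cd80, the B7 ligand of CD28 and CTLA-4, rose in CD4 cells. It read 8.71, 8.84 and 9.08 with PBS and 10.68, 10.15 and 10.30 with AzaC (1.5, SE 0.14, 2.82-fold, adjusted p = 9.09e-05). It was the single call among 13 B7 and CD28 family genes (median 0.12), and the sister ligand Cd86 differed by −0.10 (adjusted p = 0.741). Of 14 inhibitory receptors and ectoenzymes limma called 0 (2 at an unadjusted p under 0.05, median −0.09).

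A few genes of resting and memory T cells fell. Among the 19 naive and memory genes measured there were 3 falls and 0 rises, against 0.933% of all genes called lower. In 16 the difference was below 0, and the median was −0.32. Il7r, the IL-7 receptor that sustains naive and memory cells, read 11.22, 11.19 and 11.24 with PBS and 10.53, 10.66 and 10.64 with AzaC (−0.61, SE 0.09, 1.53-fold, adjusted p = 0.00357). Klf3, a repressor of the Krüppel-like family, fell by less (−0.49, adjusted p = 0.0404; 0.0598 to 0.152 without each of the 6 CD4 arrays), and Cd27 was the third. That list had 8 falls without nTreg PBS 1 and 1 to 2 without a single CD4 array. Of 21 lineage factors (median 0.11), Bcl6, of follicular helper cells, and Nfil3 fell (−0.65 and −0.52, adjusted p = 0.0277 and 0.0404). Bcl6 was lost without any CD4 array other than PBS 1 (0.0635 to 0.117) and Nfil3 without all 6 (0.0504 to 0.164). T cell identity genes had 0 calls by limma among 11 (2 at an unadjusted p under 0.05), although all 11 differences were below 0 (median −0.23).

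Few cytotoxic effector genes and NK receptors were called. Gzmb (granzyme B) read 11.05, 11.11 and 11.28 with PBS and 11.68, 12.02 and 12.06 with AzaC (0.77, SE 0.11, 1.71-fold, adjusted p = 0.00275), and Nkg7, a granule membrane protein, rose by 0.75 (adjusted p = 0.0101; 0.0559 without AZA 3). These were the 2 calls among 16 cytotoxic genes (median 0.01), a larger share than the 0.83% of all genes called higher. Klrd1 (CD94), which pairs with NKG2 receptors, was the single call among 15 NK receptors (median 0.06) and read 8.56, 8.16 and 8 with PBS and 6.98, 6.63 and 7.08 with AzaC (−1.35, SE 0.18, 2.54-fold, adjusted p = 0.00161).

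H2-Ab1, a chain of the MHC class II molecule I-A, fell from 10.75, 10.70 and 10.94 to 9.12, 9.98 and 10.07 (−1.07, SE 0.19, adjusted p = 0.0101; 0.0528 without PBS 3). Mouse T cells make little class II of their own, and AZA 1 was the lowest array. The other 5 class II genes measured had differences at or above 0, among them H2-Aa, the partner chain (0.25, adjusted p = 0.468), and H2-Eb1 (0.41, adjusted p = 0.145). The mean of the 6 genes was 7.95 to 8.03 with PBS and 7.86 to 8.09 with AzaC. B cell and myeloid marker means overlapped between the groups, as given above, while single members differed by −0.49 to 0.27 and by −0.55 to 0.34. Whether other cells contributed to the H2-Ab1 signal was not tested.

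Most genes tied to the drug's own action were not called. The calls below made up a larger share of each list than the 1.76% called over all genes, but rest on 1 and 2 genes. The median difference was −0.01 for DNA methylation and demethylation and 0.02 for azacitidine uptake and metabolism. Of 19 genes of DNA methylation and demethylation, limma called 1: Hells, a chromatin remodeller needed for DNA methylation, read 9.70, 9.69 and 9.59 with PBS and 10.32, 10.33 and 10.20 with AzaC (0.63, SE 0.10, adjusted p = 0.00637). Dnmt1, the maintenance methyltransferase that the drug traps, differed by 0.22 (95% interval −0.17 to 0.62, adjusted p = 0.58), Dnmt3a by 0.10, Dnmt3b by 0.08 and Uhrf1 by 0.19. Of 26 genes of azacitidine uptake and nucleotide metabolism, 2 rose. Dctd, deoxycytidylate deaminase, read 6.85, 7 and 6.65 with PBS and 7.68, 7.49 and 7.55 with AzaC (0.74, SE 0.12), and Ctps, CTP synthase, rose by 0.69 (adjusted p = 0.015; 0.0534 to 0.0792 without PBS 1, PBS 2, AZA 1 or AZA 3).

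Gene classes that DNA methylation keeps silent or mono-allelic showed no calls. Limma called 0 of 22 germline genes (2 at an unadjusted p under 0.05, median 0.03) and 0 of 29 imprinted genes (5 at that level, median 0.10), against 1.76% of all genes called and 3375 of 22180 at that level. Of 27 DNA repair genes, Mgmt, which removes alkyl groups from guanine, rose (0.58, adjusted p = 0.0106; 0.059 without PBS 2 and 0.0552 without AZA 3; list median 0.04). Promoters of the called genes held a median of 19 CpG among the 141 higher and 18.5 among the 172 lower genes with a RefSeq promoter, against 15 over all 16918.

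Stress and translation lists held few calls, beside 0.83% of all genes called higher and 0.933% called lower. Of 27 targets of the ATF4 stress response, 2 amino acid transporters rose: Slc7a5, from 8.72, 8.81 and 8.53 to 9.44, 9.81 and 9.53 (0.90, SE 0.16, adjusted p = 0.00895), and Slc7a1 (0.59, adjusted p = 0.00944; 0.0544 without PBS 2). The list's median was 0.03, and its rises numbered 6 without nTreg PBS 1, where Sesn2 passed (adjusted p = 0.0026, against 0.455), and 4 in the 6 CD4 arrays alone. The 14 genes of the unfolded protein response had 0 calls by limma (1 at an unadjusted p under 0.05, median 0.01). Of 15 heat shock genes 1 rose, Hsph1 (0.63, adjusted p = 0.0304; 0.0517 to 0.115 without any CD4 array other than PBS 3). Of 23 ribosome biogenesis and Myc target genes, Polr1b, of RNA polymerase I, and Nop56 rose (0.71 and 0.41) and Wdr12 fell (−0.61). All 3 were lost without at least 1 array, Polr1b without PBS 1, PBS 3, AZA 2 or AZA 3 (adjusted p of 0.0521 to 0.0635), Nop56 without each of the 6 (0.0859 to 0.123) and Wdr12 without AZA 1 (0.0504). Myc differed by −0.16 (adjusted p = 0.559). Of 78 small nucleolar RNAs, which guide the modification of ribosomal RNA, Snord16a rose (0.85, SE 0.11, adjusted p = 0.00119), and the median was 0.10. The snoRNA rises numbered 6 without nTreg PBS 1.

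Most genes of the interferon lists were not called. Each list held 1 call, a larger share than the 1.76% of all genes called, but a share that rests on a single gene. The interferon-inducible Ifitm3 (1.14) and Ifitm2 (1.12), which lie outside these lists, rose as given above. Of 31 interferon-stimulated genes and nucleic acid sensors, Rtp4 rose (0.55, adjusted p = 0.0264; 0.0559 to 0.107 without each of the 6 CD4 arrays), with a list median of 0.07. Of 14 interferon-gamma genes, Gbp10 rose (0.57, adjusted p = 0.028; 0.0756 to 0.128 without any CD4 array other than AZA 1; median 0.12). In cytokine signalling, Cish, a feedback inhibitor induced by STAT5, rose (0.77, adjusted p = 0.0157; 0.0525 to 0.0947 without PBS 2, PBS 3, AZA 1 or AZA 3) as the single call of 15 STAT and SOCS genes (median −0.02). Il2ra rose and Il7r fell among 23 cytokine receptors (median 0.09). Homing receptors and integrins (27 genes, median −0.02) and the AP-1, Egr, Nr4a and Dusp genes (25 genes, median 0.04) had 0 calls by limma, with 8 and 7 genes at an unadjusted p under 0.05.

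**Figure D4:**
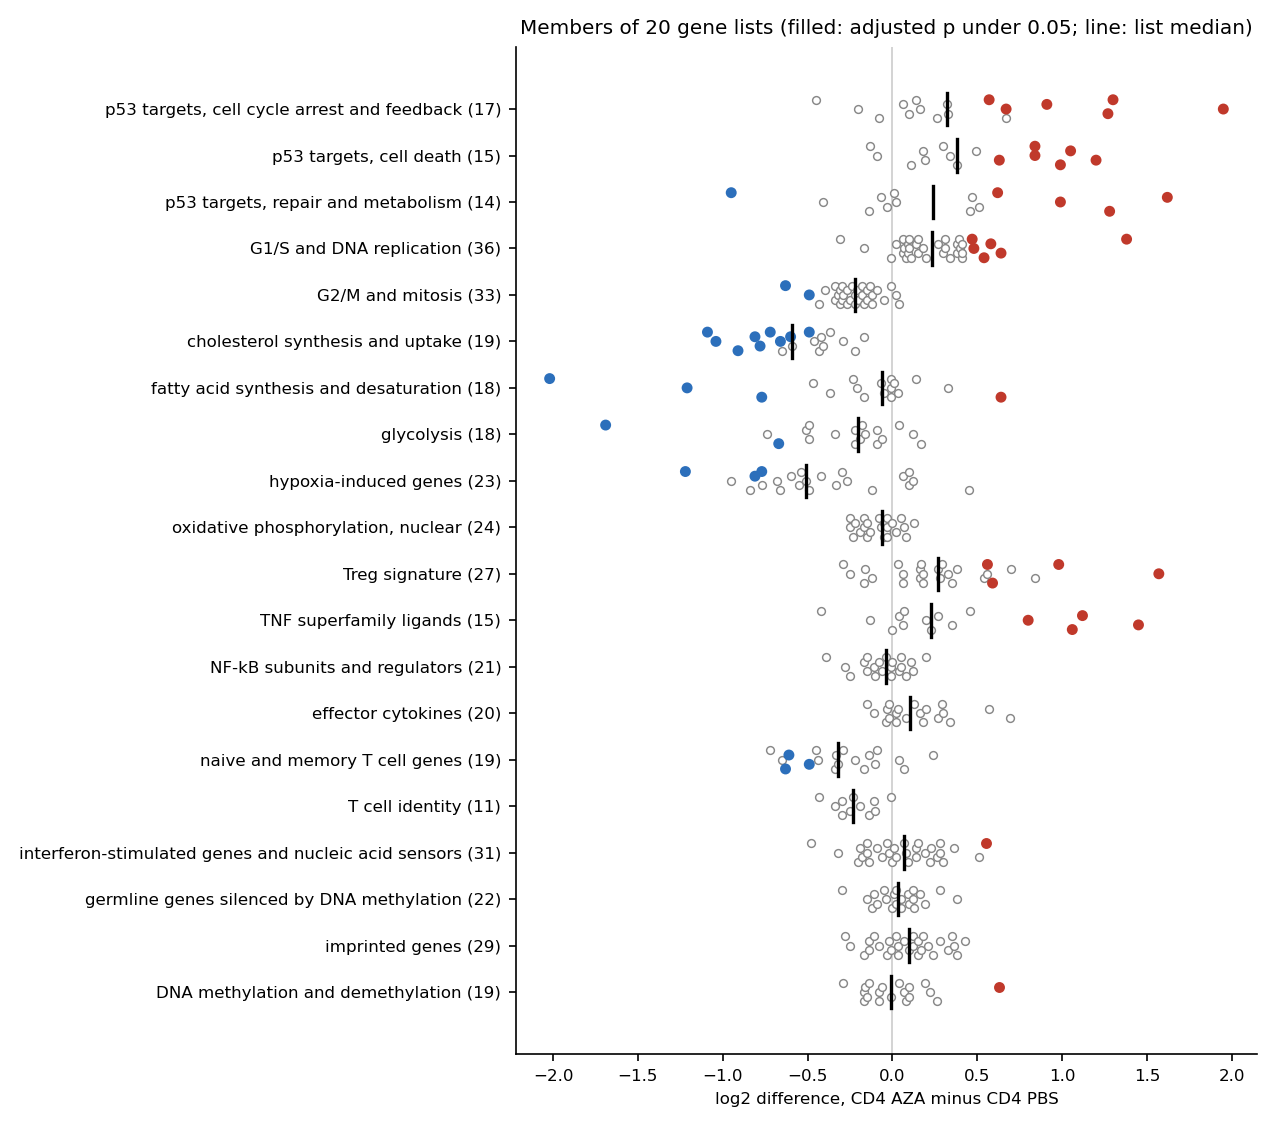
Log2 difference between CD4 AZA and CD4 PBS (x axis) for each measured gene of 20 lists (y axis, number of genes in brackets). Filled points are called genes (red higher, blue lower), open points are not called, and black lines are list medians, which run from −0.59 for cholesterol synthesis to 0.38 for the p53 death targets.

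The nTregs, sorted from cultures of the same kind, gave a comparison with no shared arrays; whether a CD4 and an nTreg array came from 1 culture is not stated, and the fit does not pair them. AzaC changed 448 genes in them (2.02%), and 88 genes were called in both populations, 22.5% of the CD4 calls and 19.6% of the nTreg calls. Of the 88, 86 went the same way, 50 higher and 36 lower. Of the 184 genes that rose in CD4 cells, 151 had an nTreg difference above 0 (median 0.34), and of the 207 that fell, 173 had one below 0 (median −0.24). The difference between both effects was called for 45 genes (0.203%), of which 20 were among the 391 CD4 calls, 12 higher and 8 lower in CD4 cells. For the other CD4 calls no difference between the populations was shown, which does not show that they responded alike. The count of 45 was 16, 12 and 15 without CD4 PBS 1, 2 and 3, 10, 24 and 10 without CD4 AZA 1, 2 and 3, and 69 without nTreg PBS 1.

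Several p53 targets responded more in CD4 cells by that test. The CD4 effect exceeded the nTreg effect by 1.62 for Cdkn1a (nTreg difference 0.33, adjusted p of the difference = 0.00126), by 1.49 for Mir34a (nTreg −0.41, 0.0351), by 1.36 for Dglucy (nTreg 0.27, 0.0198), by 1.03 for Slc19a2 (nTreg −0.04, 0.0356) and by 0.79 for Dcxr (0.0482). The larger effect started from a lower level: Cdkn1a averaged 11.73 in CD4 AZA and 11.82 in nTreg PBS. For Trp53cor1 (1.35, adjusted p = 0.0517), Plk2 (1.26, 0.136) and Mir3097 (1.49, 0.0666) the difference did not pass. The medians of the arrest, death and repair lists were 0.32, 0.38 and 0.24 in CD4 cells beside 0.02, 0.17 and 0.17 in nTregs.

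Cd80 rose in CD4 cells and not in nTregs (−0.19), with a difference of 1.69 (adjusted p = 0.00195), whereas Cd86 stood at −0.10 in CD4 cells and 0.99 in nTregs (difference −1.10, adjusted p = 0.0356). Without the drug, Cd80 averaged 11.01 in nTregs, above the 10.37 of CD4 AZA, so CD4 cells rose toward the nTreg level. Il7r fell in CD4 cells and rose in nTregs (0.59; difference −1.2, adjusted p = 0.00194). Klrd1 (nTreg 0.44; difference −1.78, adjusted p = 0.0178), Epas1 (nTreg 0.18; −1.37, 0.0198) and Scd1 (nTreg −0.79; −1.22, 0.0198) fell more in CD4 cells. The nTreg PBS mean was already near that of CD4 AZA for Klrd1 (6.94 and 6.9), Epas1 (8.06 and 8.23) and Il7r (10.56 and 10.61). For Scd1 it was not (9.06 and 7.93). NF-kB genes differed through the nTregs: Nfkb2 stood at 0.00 in CD4 cells and 1.71 in nTregs (difference −1.71, adjusted p = 0.0253), Nfkbie at −0.17 and 1.23 (−1.39, 0.00194) and Birc2 at −0.08 and 0.68 (−0.77, 0.0482). The NF-kB list had a median of −0.04 in CD4 cells and 0.59 in nTregs. Of its 21 genes, 10 rose in nTregs, where 2.02% of all genes were called in either direction.

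Other responses were called in both populations or not shown to differ. Cdk6 rose by 0.95 in nTregs, Tnf by 1.05, Tnfsf8 by 0.59, Lta by 0.66, Ikzf4 by 0.76 and Mir1949 by 1.08, all called there too. Pmvk fell in both (nTreg −0.68; difference −0.42, adjusted p = 0.217). For Foxp3 the CD4 effect was larger by 1.21, which missed the threshold (adjusted p = 0.0517; nTreg 0.35). The cholesterol list had a median of −0.07 in nTregs, yet limma called the difference between populations for 0 of its 19 genes, with Hmgcs1 at −1.17 (adjusted p = 0.103) and Fdps at −0.68 (0.0783). G1/S genes had medians of 0.23 in CD4 cells and 0.25 in nTregs, and G2/M genes −0.22 in each.

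**Figure D5:**
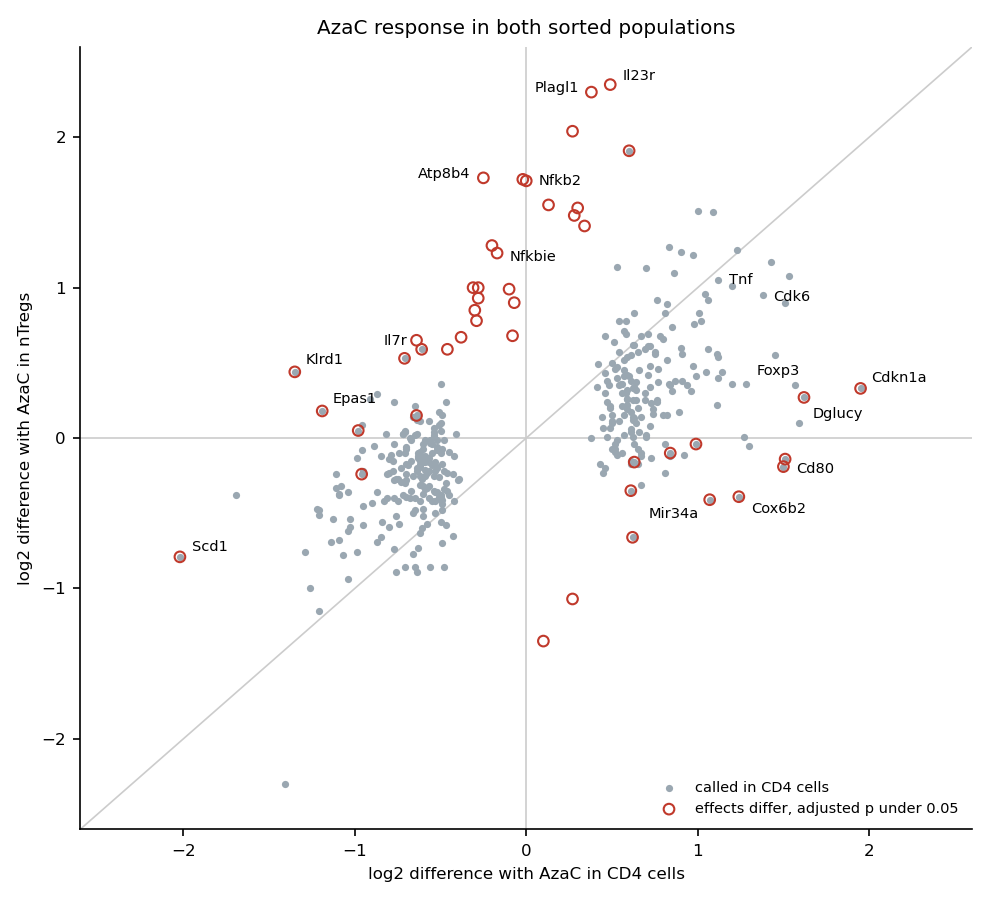
Log2 difference with AzaC in CD4 cells (x axis) against that in nTregs (y axis). Grey points are the 391 genes called in CD4 cells and red circles the 45 genes whose effects differ between the populations; Cdkn1a and Cd80 lie to the right of the diagonal and Nfkb2 and Il23r above it.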

How the data were processed

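Arrays of 12 samples (4 groups of 3) were analysed from the authors' deposited table of log2 signals, which the submitters' processing notes credit to RMA and Affymetrix Expression Console with no versions; RNA was labelled with the WT Pico kit per the labels' protocols. RMA corrects background and forces arrays to 1 common distribution, which can compress shifts that most genes share. The sources used here name no genome build for the array annotation.

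Of 41345 rows, 25335 were annotated, 23521 with 1 symbol, 1814 with several and 16010 with none. Where a gene had more than 1 row (1082 genes), the brightest on average in the 12 arrays stood for it, giving 22180 genes. Symbols were checked against the RefSeq table by identifier: 186 identifiers were absent from it and 0 symbols changed. Groups were compared with limma 3.58.1 (lmFit and eBayes, R 4.3.3, statmod 1.5.0) in 1 fit of 4 group means, with 8 residual and 5.95 prior degrees of freedom. The interaction was a contrast of that fit, and p-values were adjusted by Benjamini-Hochberg over all genes. The script was tested on simulated data.

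Samples with the same replicate number did not deviate together (correlations of −0.02, −0.099 and −0.065), so the numbers were not taken to pair samples. Named were the 20 largest non-overlapping rises and falls, up to 6 called genes per list, preset genes and the 10 largest interactions each way. Passed over as predicted models, small RNAs or histones were 3 rises (Mir3097, Mir1949, 9230114K14Rik), 2 falls (Gm15850, H1f2) and 3 interactions. The comparison, 49 gene lists and alternatives were chosen with earlier results of these data known. The p53 motif, the miRNAs and the genes said to be so were chosen after their values were seen, and the list of mitochondrial RNAs was matched by names without a prefix once the table's names were known. Promoters came from RefSeq (GRCm38.p6) for 313 of the 391 called genes. Alternatives were a filter on genes above 5 (log2) in at least 3 CD4 arrays, centring, quantile normalization, averaged rows, fixed and random replicate blocks, array weights, a trended robust fit, left-out arrays, the 6 CD4 arrays alone, a 2-fold minimum and, chosen after seeing the data, every row of the table.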

Additional observations from a re-analysis of the deposited data

Results flagged for a closer look

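The effect of AzaC differed between CD4 cells and nTregs, by the limma contrast of both effects, for the named genes that follow, given as the CD4 effect minus the nTreg effect on the log2 scale. The CD4 effect was the more positive for Cd80 (1.69), Cox6b2 (1.63), Cdkn1a (1.62), Muc3a (1.45), Dglucy (1.36), Gpr155 (1.33), Slc19a2 (1.03), Ddias (0.96), Cd81 (0.94) and Dcxr (0.79). Muc3a and Gpr155 stood at 0.10 and 0.27 in CD4 cells and fell in nTregs (−1.35 and −1.07). Cd81, a tetraspanin, and Ddias, an apoptosis suppressor, rose in CD4 cells (0.84 and 0.61). The CD4 call of Ddias was lost without PBS 1, AZA 1 or AZA 2 (adjusted p = 0.0832, 0.0534 and 0.068).

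The CD4 effect was the more negative for Atp8b4 (−1.99), Plagl1 (−1.92), Il23r (−1.85), Klrd1 (−1.78), Csn2 (−1.77), Dusp4 (−1.74), Nfkb2 (−1.71), Ubd (−1.48), Scin (−1.42), Nfkbie (−1.39), Epas1 (−1.37), Scd1 (−1.22) and Il7r (−1.2). Plagl1, Il23r and Dusp4 rose in nTregs (2.3, 2.35 and 1.72) and were not called in CD4 cells (0.38, 0.49 and −0.02). Klrd1, Epas1, Scd1 and Il7r fell in CD4 cells.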

How the results depend on the processing

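The 391 called genes (184 higher, 207 lower; 45 for the difference from nTregs) became 1291 (500 and 791; 401) with array weights, 1044 (368 and 676; 69) without nTreg PBS 1, 678 (415 lower; 77) without nTreg PBS 1 and CD4 PBS 3, and 57 (32 and 25) at a 2-fold minimum. Leaving out 1 CD4 array gave 164 to 285 (90 to 127 higher, 64 to 158 lower; 10 to 24). Centring gave 325 lower and 91 for the difference from nTregs. Over every row of the table, chosen after seeing the data, 255 of 41345 were called. The replicate block, of numbers that do not pair the samples, gave 284 (139 and 145; 34), sharing 250 with the 391; the random replicate block gave 411. The other settings (filter on dim genes, quantile normalization, averaged rows, trended robust fit, CD4 arrays alone) gave 333 to 457. No called gene named here changed sign under any refit, whereas Mdm2, Il2, Mki67, Dnmt3b, Ikzf2, Cd8a, Dusp4, Cd86 and Uty, none called, changed sign under at least 1. Of 98 named genes called, 62 kept their call under every alternative other than the 2-fold minimum and the table of every row, and 36 lost it without at least 1 CD4 array. Arrays give no read depth. The filter left out 2638 dim genes, 4 of them called.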

Other observations

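Genes outside the lists, chosen after their values were seen, added further surface and enzyme genes. Sema7a, a membrane-bound semaphorin of activated T cells, rose by 1.09 in CD4 cells (adjusted p = 0.00106) and by 1.5 in nTregs, Tgm2, a transglutaminase, by 1.01 (adjusted p = 0.00125), Tmem176b by 1.00 and Ptger4, the prostaglandin receptor EP4, by 0.85 (adjusted p = 0.000595). Ccng2, an atypical cyclin of non-dividing cells, and Lipa, the lysosomal acid lipase, fell (−0.77 each, adjusted p = 0.00637 and 0.0082). Together with Rev1 and Dna2, these calls held in every refit; the 2-fold minimum and the table of every row were not applied gene by gene.

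Others rested on single arrays. Myb (0.53), Mthfd1 (0.82), App (0.76), Drosha (0.46) and Aim2 (0.47) rose, and Ctsl (−0.83), Cd7 (−0.76), Idh2 (−0.57) and Themis (−0.50) fell, each called with all arrays and lost without at least 3 of the 6 CD4 arrays (adjusted p of 0.0504 to 0.19 where lost).

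Xist, the RNA of the silent X chromosome, read 5.65, 5.57 and 5.59 with PBS and 6.50, 6.09 and 6.05 with AzaC (0.61, adjusted p = 0.039). Its call was lost without each of the 6 CD4 arrays (0.0588 to 0.17), after centring (0.0574) and after quantile normalization (0.0633). Xist read below the array medians of 6.67 to 6.8 in every CD4 array, so its rise is that of a dim signal. The Y-linked genes Eif2s3y, Kdm5d and Uty averaged 10.11, 9.35 and 9.32 in CD4 PBS and differed by −0.06, −0.26 and −0.08. Of 16010 rows without a gene name, 46 were called when all 41345 rows were tested together, 28 higher and 18 lower.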
